A study of Strigamia maritima with 9 samples.

Results

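Native centipede DNA held 4057 regions where the methyl-CpG binding domains CopiaMBD2 and CopiaMBD3 both had a peak and CopiaMBD1 had none. They were chosen by the authors' peak calls alone. The peaks of the 3 domains on native DNA were pooled, peaks sharing at least 1 bp were merged, and merged regions with peaks of exactly these domains were kept. Of 21205 merged regions they made up 19.1% (exact 95% interval 18.6 to 19.7). The regions of all 3 domains numbered 4556 and serve as the main comparison. The number depends on list length, since the CopiaMBD1 list held 7461 peaks, that of CopiaMBD2 14001 and that of CopiaMBD3 15714. With the 7461 best-supported peaks of each list, 1206 of 12924 merged regions (9.33%) had CopiaMBD2 and CopiaMBD3 peaks only. When CopiaMBD2 and CopiaMBD3 peaks needed a −log10 q (the caller's adjusted p) of 10 or more and CopiaMBD1 peaks did not, 434 of 10341 (4.20%) were left.

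The DNA came from adult tissue of the coastal centipede Strigamia maritima, of the strain from which the genome was sequenced. Each domain was made by translation in vitro and fused to HaloTag, a tag that couples a protein to beads, so these are binding measurements of isolated domains on naked DNA without chromatin. Native-DNA libraries of CopiaMBD1, CopiaMBD2 and CopiaMBD3 and a native library with HaloTag only were used, together with the same set on DNA copied by 11 PCR cycles before binding, a step that does not copy methyl groups. Fragments had a mean length of 200 bp, and purified DNA was amplified by 20 final cycles. Every group was 1 library, so no difference between groups has a replicate check, no p-value is given, and the 3 native lists share their HaloTag-only control. Native-DNA peak calls rested on 2239324, 2224965 and 2044955 fragments at unique positions for CopiaMBD1, CopiaMBD2 and CopiaMBD3, against 4050757 for the control.

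A methyl-CpG binding domain recognises a CpG dinucleotide whose cytosines are methylated on both strands, and host proteins with this domain act as readers of DNA methylation. Copia elements are retrotransposons that move through an RNA intermediate and are framed by long terminal repeats. In many arthropods DNA methylation lies mostly within the transcribed parts of a subset of genes. The numbers 1 to 3 tell the Copia domains apart and do not refer to the vertebrate proteins MBD1, MBD2 and MBD3. Positions are those of the deposited lists, on scaffolds (names starting with JH) and on contigs (names starting with AFFK). Full sequence lengths were not used here. Their build was not stated by the labels or headers, and no gene, repeat or sequence is assigned to them.

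Most of the 4057 regions were moderately enriched sites. Fold enrichment is the authors' ratio of fragments over a peak's summit to the local level of the HaloTag-only control. Its median was 4.65 for CopiaMBD2 (interquartile range 3.78 to 5.64) and 5.32 for CopiaMBD3 (4.23 to 6.78). At the regions of all 3 domains it was 5.58 (4.29 to 7.30) for CopiaMBD2, 6.64 (4.95 to 8.68) for CopiaMBD3 and 4.53 (3.73 to 5.57) for CopiaMBD1. Where CopiaMBD2 or CopiaMBD3 had a region to itself, the median was 4.19 and 4.73. The regions without CopiaMBD1 thus lay between the others for both domains. Their peaks helped to define the classes, so these folds describe the classes and test nothing.

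The support behind each call followed the same order. The median −log10 q was 6.09 for CopiaMBD2 and 8.22 for CopiaMBD3, against 10.3 and 13.7 where CopiaMBD1 was also present. Both domains passed 10 on that scale at 433 of the 4057 regions (10.7%, exact 95% interval 9.74 to 11.7) and by neither at 2234 (55.1%, 53.5 to 56.6). The median summit carried 16 fragments of CopiaMBD2 and 18 of CopiaMBD3. The exact Poisson 95% intervals of such counts are 9.15 to 26.0 and 10.7 to 28.4, so the fold of a typical single region is known only within a wide range. Intervals here cover counting error only.

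**Figure D1:**
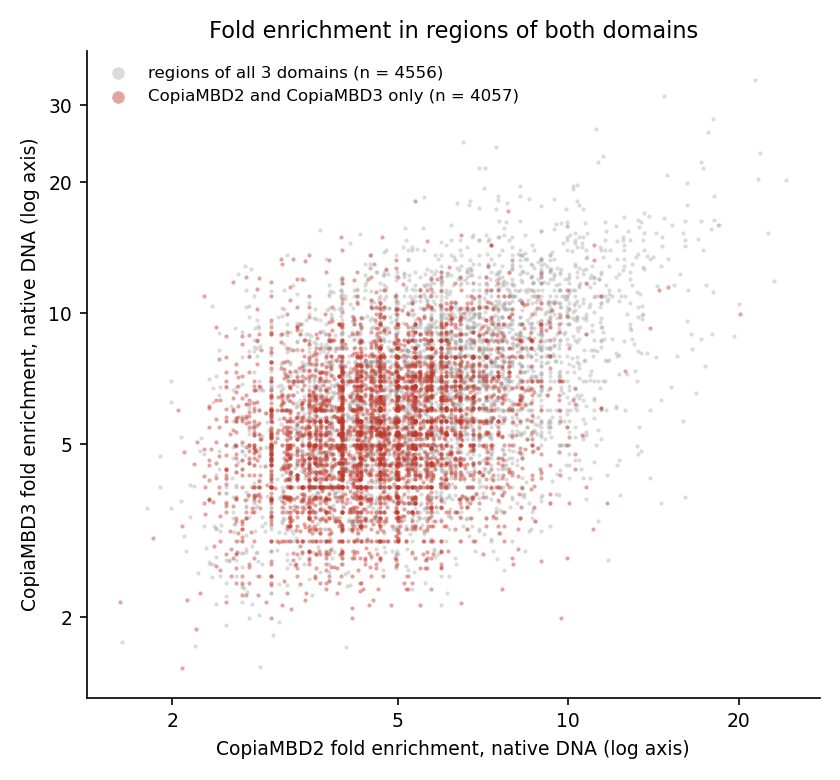
CopiaMBD3 fold enrichment against CopiaMBD2 fold enrichment on native DNA, both on log axes, with 1 point per region. The 4057 regions without a CopiaMBD1 peak (red) sit mostly in the lower left of the cloud, and the 4556 regions of all 3 domains (grey) reach further to the upper right.

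Control coverage differed between the classes too. Set against the lowest HaloTag-only level in the same list, the median local level was 1.37 at the CopiaMBD2 summits and 1.36 at the CopiaMBD3 summits of the 4057 regions. At the regions of all 3 domains it was 1.68 and 1.83. Both summits lay at the lowest control level in 500 of the 4057 regions (12.3%, 11.3 to 13.4) and in 368 of the 4556 (8.08%, 7.30 to 8.91). In those 500 the median fold was 5.37 for CopiaMBD2 and 6.04 for CopiaMBD3, and in the 368 it was 6.44 and 7.55. The part of control coverage in the CopiaMBD1 calls was not tested.

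The control level itself was not the same in each list. Every peak-calling run drew its own random sample of the HaloTag-only library, and the part of this sampling in the differences was not tested. At 814 of the 4057 regions the CopiaMBD2 and CopiaMBD3 summits lay within 10 bp of each other. There the control levels of both lists, scaled by library size, differed by a median of 1.16 times (interquartile range 1.06 to 1.45). They differed by at least 1.5 times at 180 of these regions (22.1%), and by up to 3.05 times. The fold of a single region carries this variation in addition to the counting error of its summit.

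The regions were compact. Of the 4057, 3915 (96.5%) held 1 peak of each domain, 85 held a pair of CopiaMBD2 peaks with 1 CopiaMBD3 peak, and 50 the reverse. The other 7 held at least 4 peaks. Median width was 255 bp (209 to 340), against 355 bp (269 to 500) for the regions of all 3 domains and 169 and 174 bp for CopiaMBD2 and CopiaMBD3 alone. In total they covered 1192 kb, or 0.687% of the effective genome size set by the authors.

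The rule asks the peaks of a region to be joined by overlap, so closeness of their summits follows in large part from the selection. Summits were a median of 32 bp apart (interquartile range 13 to 66), with 66.4% within 50 bp and the farthest 922 bp. At the regions of all 3 domains the CopiaMBD2 and CopiaMBD3 summits were 30 bp apart (11.75 to 74), also with 66.4% within 50 bp. The peaks shared a median of 160 bp, and at 3300 of 4057 regions (81.3%, 80.1 to 82.5) the overlap covered at least 50% of each. The widest regions were less simple. JH431830 (158276 to 159929) spanned 1654 bp with 3 CopiaMBD2 and 2 CopiaMBD3 peaks, of top fold 6.86 and 2.99. JH432211 (181855 to 183137) and JH431236 (44925 to 46129) spanned 1283 and 1205 bp with 1 peak of each domain.

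The lower of the CopiaMBD2 and CopiaMBD3 folds describes a site for both domains at once, without adjusting for the different depth of the lists. It had a median of 4.24 (interquartile range 3.49 to 5.01) at the 4057 regions and 4.98 (3.98 to 6.47) at the regions of all 3 domains. It was at least 8 at 49 of the 4057 regions (1.21%) and at 504 of the 4556 (11.1%), and at least 10 at 6 and 178 regions. None of the 4057 reached 15, a level that 20 regions of all 3 domains passed. Weak sites occurred in both classes, with a lower fold under 3 at 515 and 340 regions. The values of both classes overlapped over most of their range.

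**Figure D2:**
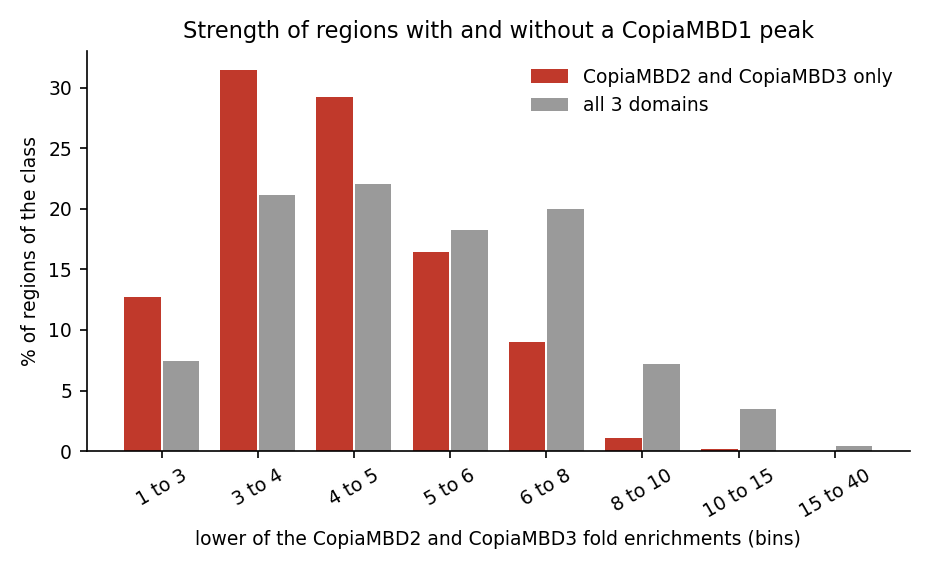
Share of regions (% of each class) by the lower of the CopiaMBD2 and CopiaMBD3 fold enrichments, in 8 bins. Of the regions without CopiaMBD1, 31.5% fell between 3 and 4 and 29.2% between 4 and 5, while the regions of all 3 domains were more often above 6.

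The CopiaMBD1 list gives no value outside its peaks. The deposited p-values equal a Poisson tail of the summit count at the local control level, to within 0.000271 on the −log10 scale in the native lists. The control levels recovered from the CopiaMBD2 and CopiaMBD3 lists therefore give an estimate of the lowest CopiaMBD1 fold that could have been called at a region. The level in the CopiaMBD1 run itself is not known there, since that run sampled the control separately. Where CopiaMBD1 did have a peak, at the 4556 regions of all 3 domains, the estimate was a median of 1.0105 times the limit at the level of the CopiaMBD1 list itself (range 0.756 to 1.42). It was within 10% of it at 3706 (81.3%) and below it at 1633 (35.8%). At the 4057 regions the estimated limit had a median of 2.79 (interquartile range 2.72 to 2.89). The CopiaMBD2 and CopiaMBD3 folds both exceeded it at 3888 of 4057 regions (95.8%, 95.2 to 96.4). CopiaMBD2 and CopiaMBD3 peaks had to pass a similar limit of their own. The lower fold was a median of 1.54 times the CopiaMBD1 limit. The lower fold was at least 2 times the limit at 680 regions (16.8%, 15.6 to 17.9).

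The estimated limit is not an upper bound. No CopiaMBD1 peak was narrower than the fragment length estimated for its library, so a narrow summit above the limit could stay uncalled. Of its 7461 peaks, 1437 (19.3%) stood within 3 fragments of the limit, and the median peak stood 7 fragments above it. Where the lower fold was at least 8, CopiaMBD1 had a median fold of 5.98 (4.88 to 7.56, lowest 2.49) at the 504 regions with its peak.

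By lower fold, the top region without CopiaMBD1 lay on scaffold JH430992 (66556 to 66845). CopiaMBD2 had a fold of 15.03 there from 41 fragments (exact Poisson 95% interval of the fold 10.9 to 20.3), and CopiaMBD3 a fold of 11.5 from 45 fragments (8.43 to 15.2). The estimated CopiaMBD1 limit was 2.79, and no CopiaMBD1 peak was listed on that scaffold. The control level was 1.79 fragments at the CopiaMBD2 summit and 3.01 at the CopiaMBD3 summit, which lay 5 bp apart. No domain had an amplified-DNA peak at the site. By percentile within each list, its folds stood at 99.7 for CopiaMBD2 and 96.9 for CopiaMBD3. JH429654 stood at 98.5 and 98.6 and JH429724 at 98.5 and 99.2, so the order of the top regions depends on the measure.

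The next 9 regions by lower fold lay on scaffolds and contigs alike. JH430511 (467 to 1251) had folds of 14.5 for CopiaMBD2 and 11.3 for CopiaMBD3. JH429724 (140 to 411) had 11.1 and 14.3, and JH429654 (3861 to 4153) had 11.1 and 13.2.

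AFFK01005166 (129 to 432) reached 11.5 and 11.0, JH430669 (2262 to 2715) reached 10.7 and 11.7, and AFFK01020257 (2545 to 2795) reached 9.96 and 11.3. AFFK01006301 (217 to 466) had the highest CopiaMBD2 fold of all 4057 regions, 20.1, with 9.96 for CopiaMBD3. AFFK01011007 (58 to 296) had 9.95 and 9.85, and AFFK01001518 (375 to 554) had 9.66 and 9.81. At these 9 sites the estimated CopiaMBD1 limit was 2.48 to 2.88.

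The strong sites differed in their surroundings. Of the same 10 regions, 5 lay on sequences with no CopiaMBD1 peak at all. JH430511 had its nearest CopiaMBD1 peak 178 bp away and AFFK01005166 had one at 400 bp. At the other 3 the gap was 1228 to 2920 bp. Of the 5 sequences without a CopiaMBD1 peak, 3 were contigs, beyond whose ends nothing is known.

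Some regions had a high fold for one domain and a low one for the other, and at many of them the control levels of both lists differed as well. Because lists of different length and depth cannot be compared by fold, each fold was placed by its percentile within its own list. The percentiles of CopiaMBD2 and CopiaMBD3 were within 25 points of each other at 2252 of 4057 regions (55.5%, 54.0 to 57.0) and over 50 points apart at 602 (14.8%, 13.8 to 15.97). CopiaMBD2 had the higher percentile at 1944 regions (47.9%, 46.4 to 49.5). Percentiles do not remove a difference in control. Scaled control levels differed by at least 1.5 times at 332 of the 602 regions (55.1%, 51.1 to 59.2) and at 355 of the 2252 (15.8%, 14.3 to 17.3). Where CopiaMBD3 stood over 50 points higher, at 320 regions, the median summit held 15 fragments of CopiaMBD2 and 24 of CopiaMBD3, over control levels of 4.02 and 2.11. Where CopiaMBD2 stood over 50 points higher, at 282 regions, it held 20 and 15 fragments over 2.01 and 3.01.

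The largest contrast in favour of CopiaMBD2 was on JH431304 (9214 to 9649), with a fold of 9.73 against 1.99 for CopiaMBD3. AFFK01015414 (1214 to 1611) had 9.96 and 2.74, and AFFK01014597 (1564 to 1753) had 8.96 and 2.69. AFFK01020023 (2264 to 2770) had 11.1 and 3.19, and JH431878 (290097 to 290319) had 7.98 and 2.66. In these 5 the CopiaMBD2 summit held 28 to 44 fragments over a control of 2.01 to 4.02. The CopiaMBD3 summit held 15 to 26 over a control of 4.02 to 11.05.

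In the other direction, JH430900 (55839 to 56133) had a CopiaMBD3 fold of 11.0 and a CopiaMBD2 fold of 2.27. JH431096 (123560 to 124150) had 11.8 and 2.56, and AFFK01009956 (717 to 941) had 12.1 and 2.70. JH429920 (7382 to 8047) had 12.02 and 2.84, and JH431646 (332496 to 332859) had 11.4 and 2.82. At these 5 the CopiaMBD2 summit held 15 to 19 fragments over a control of 5.03 to 6.04, and the CopiaMBD3 summit 32 to 36 over 1.83 to 2.25. Both summits of JH430900 were at base 56029, with control levels of 6.04 and 2.01 in the 2 lists and 15 and 32 fragments. The contrast in fragments was thus smaller than the contrast in fold.

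The regions with the highest CopiaMBD3 fold, chosen by that fold, had a lower CopiaMBD2 fold. AFFK01010091 (23 to 362) reached 18.1 for CopiaMBD3 with 5.37 for CopiaMBD2. AFFK01016014 (82 to 290) reached 17.1 with 7.83, and AFFK01012980 (2955 to 3138) reached 15.1 with 6.47. By percentile within each list, in that order, CopiaMBD2 stood at 67.1, 91.6 and 82.9 and CopiaMBD3 at 99.8, 99.7 and 99.4. No CopiaMBD1 peak lay on any of these 3 contigs.

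Just inside the rule, AFFK01016813 (1629 to 2090) lay 2 bp from a CopiaMBD1 peak, with folds of 5.37 for CopiaMBD2 and 3.77 for CopiaMBD3. JH432148 (40848 to 41108), AFFK01004648 (67 to 288), JH429685 (14596 to 14957) and JH431166 (126505 to 127118) had gaps of 10, 12, 18 and 21 bp. Of these JH429685 was strong, at 9.30 for both domains. By support, JH431388 (65404 to 65905), chosen after its values were seen, was among the weakest inside the rule, with a −log10 q of 1.31 for CopiaMBD3.

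Just outside the rule stood regions whose CopiaMBD1 peak barely passed. The 5 named here shared a CopiaMBD1 −log10 q of 1.30, the lowest among regions of all 3 domains. Other regions may share that value. Among them AFFK01000970 (93 to 327) had a CopiaMBD1 fold of 2.32, with 5.64 for CopiaMBD2 and 8.31 for CopiaMBD3, and AFFK01000352 (37 to 1221) had 1.91, 4.68 and 9.32. AFFK01015414 (18621 to 19023) had 2.32, 5.23 and 4.25, AFFK01018534 (3475 to 3906) had 2.32, 3.78 and 3.86, and AFFK01016325 (578 to 874) had 1.99, 2.07 and 3.70. The CopiaMBD1 summits of these 5 held 13 to 24 fragments.

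On amplified DNA, few of the 4057 regions had a peak. An amplified-DNA peak of any domain overlapped 21 of them (0.518%, exact 95% interval 0.321 to 0.790). Over all merged regions the share was 0.566%, which lies inside that interval. With a −log10 q of at least 10 in all 3 native lists the share was 1.21% (0.717 to 1.90) beside 0.911% of all regions, and with a fold of at least 5 it was 0.932% (0.578 to 1.42) beside 0.655%. With the stricter q for CopiaMBD2 and CopiaMBD3 only it was 0.922% (0.252 to 2.34) beside 0.822%. All 3 backgrounds lay inside the intervals. CopiaMBD1 had such a peak at 6 regions (0.148%, background 0.207%), CopiaMBD2 at 9 (0.222%, background 0.156%) and CopiaMBD3 at 8 (0.197%, background 0.25%). For the regions of all 3 domains the share with any was 1.23% (0.930 to 1.59), where control levels were higher. Where CopiaMBD2 or CopiaMBD3 was alone the share was 0.347% (0.190 to 0.582) and 0.217% (0.116 to 0.371). An overlap of 1 bp counted, so wider regions had more room for one. Median widths were 355 bp with all 3 domains, 255 bp at the 4057, and 169 and 174 bp for CopiaMBD2 and CopiaMBD3 alone. The parts of control level and region width in these differences were not tested. The amplified-DNA lists were not used to choose the regions. They rested on more fragments than the native lists, 3488873 to 3772201 per domain.

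The 21 regions had amplified-DNA peaks with a median fold below that of the list for CopiaMBD1 and CopiaMBD3 and near it for CopiaMBD2. Their highest amplified-DNA fold ran from 2.49 to 5.45 with a median of 3.45, and 2 had peaks of more than 1 domain. By domain the median was 3.20, 3.62 and 2.86 for CopiaMBD1, CopiaMBD2 and CopiaMBD3, against 3.51, 3.53 and 3.49 over all peaks of those lists. JH431707 (11688 to 11897) had the highest, 5.45, and it belonged to CopiaMBD1, which had no native peak there, while CopiaMBD2 and CopiaMBD3 had native folds of 4.69 and 14.95. JH431311 (7186 to 7351) had an amplified-DNA fold of 5.26 for CopiaMBD3, with native folds of 3.73 for CopiaMBD2 and 2.39 for CopiaMBD3. JH432141 (61351 to 61716) had 4.43 on amplified DNA for CopiaMBD3, with native folds of 6.97 and 6.73. Amplified and native folds come from lists of different depth and control and are not ranked against each other.

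The next 5 were all CopiaMBD2 peaks on amplified DNA, of fold 3.62 to 4.02. They lay on AFFK01009014 (183 to 415), JH432211 (12273 to 12545), JH431883 (69722 to 70017), AFFK01018822 (3386 to 3605) and JH430753 (35443 to 36557). Their native CopiaMBD2 folds were 3.33, 3.18, 4.18, 4.65 and 4.73. In all, 16 of the 21 regions had an amplified-DNA peak of CopiaMBD2 or CopiaMBD3, and 5 had one of CopiaMBD1 only.

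Native folds at the 21 were near those of the rest. Their median native fold was 4.65 for CopiaMBD2 and 5.88 for CopiaMBD3, against 4.65 and 5.32 at the other 4036. The local control level did differ, with medians of 3.802 and 3.01 fragments at the CopiaMBD2 and CopiaMBD3 summits against 2.44 and 2.25 at the others. Its part in these peaks was not tested.

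By position the 4057 regions were close to the average region. Contigs held 1471 of them (36.3%, 34.8 to 37.8) and 35.4% of all merged regions, but 42.9% (41.5 to 44.4) of the regions of all 3 domains. The first 500 bp of a sequence held the start of 455 regions (11.2%, 10.3 to 12.2), against 18.8% (17.7 to 20.0) of the regions of all 3 domains and 11.5% of all merged regions. CopiaMBD2 alone and CopiaMBD3 alone were on contigs in 33.3 and 30.9% of cases. On both counts the regions stood between those of a single domain and those of all 3.

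Contigs carried somewhat higher folds. The 1471 regions there had a median of 4.85 for CopiaMBD2 (interquartile range 3.98 to 5.97) and 5.65 for CopiaMBD3 (4.38 to 6.98). The 2586 on scaffolds had 4.55 (3.71 to 5.44) and 5.28 (4.19 to 6.65). The local control level was lower on contigs, 2.098 and 2.01 fragments against 2.68 and 2.39, and its part in the difference was not tested.

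**Figure D3:**
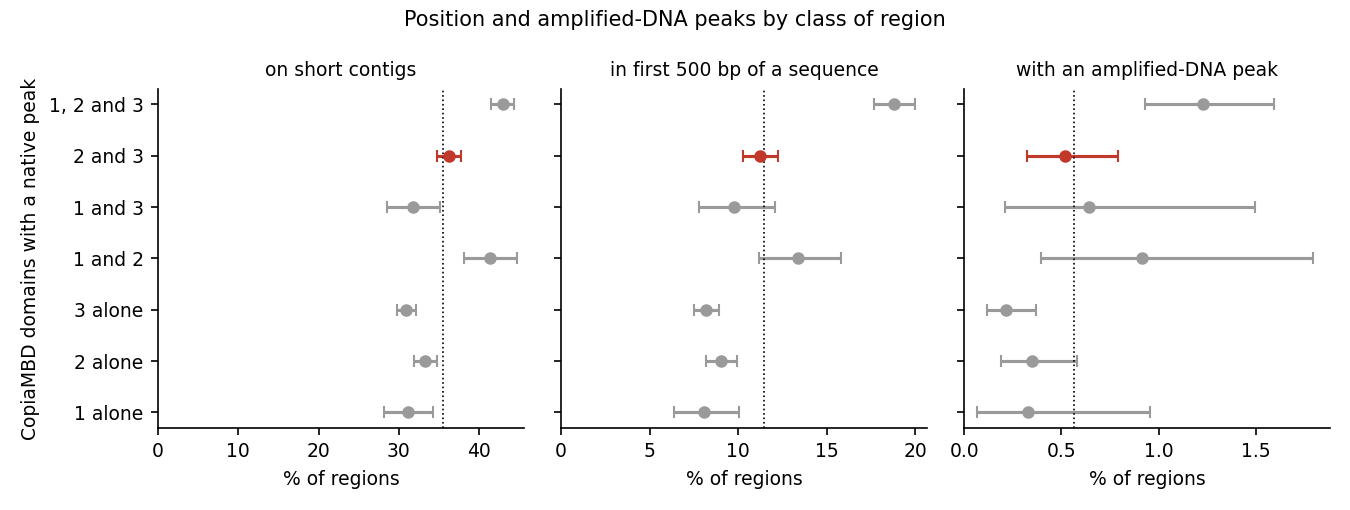
Percent of regions on AFFK contigs, in the first 500 bp of a sequence, and with an amplified-DNA peak, for the 7 classes of native region, with exact 95% intervals and a dotted line at the share over all merged regions. The regions of CopiaMBD2 and CopiaMBD3 only (red) sit on or beside the dotted line in each panel, and those of all 3 domains lie to its right.

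The regions were scattered over many sequences and interleaved with other binding sites. They lay on 2226 of the 6018 sequences with any region, 1102 contigs and 1124 scaffolds, and 1448 regions were the only such region on their sequence. On 611 sequences, with 659 regions, there was no other kind of region. Only 18 sequences held at least 10, with 295 regions in all.

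Another such region lay within 1 kb of 743 (18.3%, 17.1 to 19.5) and within 5 kb of 1592 (39.2%, 37.7 to 40.8). Over all merged regions, 14.96% had a region of CopiaMBD2 and CopiaMBD3 only within 1 kb and 34.8% within 5 kb. The share within 1 kb was 8.52% with the stricter q, 10.6% with a fold of at least 5 and 5.64% with equal lists. It was 1.38% with the stricter q for CopiaMBD2 and CopiaMBD3 only. These settings kept fewer regions, and the part of that in the lower shares was not tested. The share over all merged regions was computed only under the rule as stated. Those 743 were no stronger than the rest, with median folds of 4.48 and 5.28 for CopiaMBD2 and CopiaMBD3 against 4.65 and 5.32. Among 3490 regions with any neighbour on their sequence, the nearest was of the same kind for 773 (22.1%, 20.8 to 23.6). Over all merged regions with a neighbour this share was 19.6%. The nearest region was a CopiaMBD3-alone region for 28.5%, one of all 3 domains for 20.4% and a CopiaMBD2-alone region for 18.1%, and over all merged regions these shares were 28.3, 20.8 and 19.1%. The kinds of region were mixed along the sequences. The share with a nearest neighbour of the same kind was somewhat above its background, and the printed shares of other kinds were close to theirs.

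Uninterrupted runs were short. Of the 4057 regions, 2915 had no neighbour of the same kind in either direction, 826 stood in pairs and 240 in runs of 3. The longest run, singled out after its values were seen, was 6 regions over 7725 bp on JH430444 (33087 to 40811). Its folds were 2.99 to 4.98 for CopiaMBD2 and 3.32 to 7.55 for CopiaMBD3, none of them high. A further 6 regions of other kinds lay on that scaffold.

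Distances to CopiaMBD1 were somewhat shorter than at the single-domain regions, by more against CopiaMBD3 alone. On 1168 regions' sequences (28.8%, 27.4 to 30.2) there was no CopiaMBD1 peak, much as for CopiaMBD2 alone (28.1%, 26.7 to 29.5) and CopiaMBD3 alone (28.1%, 26.9 to 29.2). Those 1168 had median folds of 4.98 for CopiaMBD2 and 5.65 for CopiaMBD3, against 4.57 and 5.28 at the 2889 regions that shared a sequence with CopiaMBD1. Contigs held 68.0% of the former and 23.4% of the latter. The median control level at the CopiaMBD2 and CopiaMBD3 summits was 2.01 and 2.01 fragments for the former, against 2.82 and 2.52 for the latter. Its part in the difference of folds was not tested. For the 2889 the nearest CopiaMBD1 peak was a median of 2088 bp away (interquartile range 666 to 6818), against 2376 bp for CopiaMBD2 alone and 2856 bp for CopiaMBD3 alone. A CopiaMBD1 peak stood within 500 bp of 573 regions (14.1%, 13.1 to 15.2), against 12.6% (11.6 to 13.7) and 11.8% (11.0 to 12.7). The other 3484 regions had none within that distance.

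**Figure D4:**
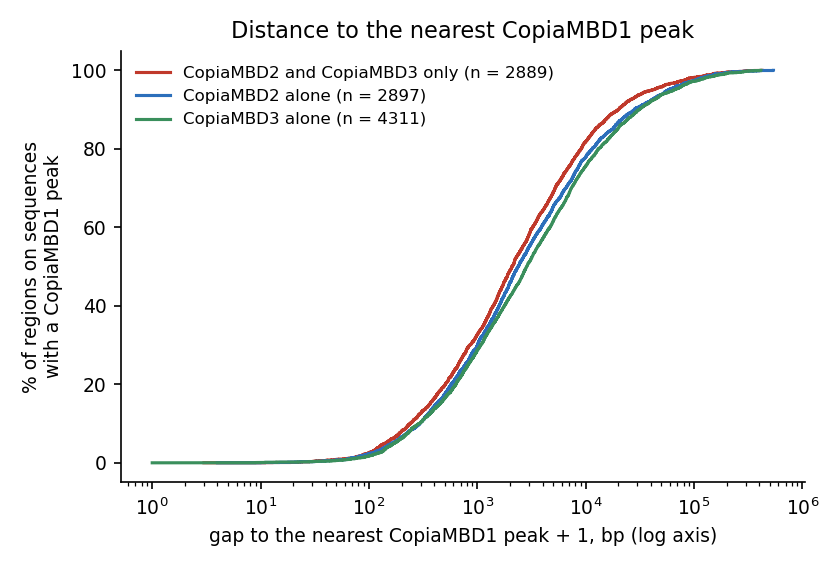
Cumulative percent of regions by the gap to the nearest CopiaMBD1 peak (bp plus 1, log axis), for regions on sequences with a CopiaMBD1 peak. The median gap was 2088 bp for regions of CopiaMBD2 and CopiaMBD3, 2376 bp for CopiaMBD2 alone and 2856 bp for CopiaMBD3 alone.

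Scaffold JH432211 had the most, 40 among its 186 regions (21.5%). It also held 41 regions of all 3 domains, 69 of CopiaMBD3 alone and 24 of CopiaMBD2 alone. The 40 had CopiaMBD2 folds of 2.49 to 7.63 (median 4.48) and CopiaMBD3 folds of 2.85 to 10.6 (median 5.35). They fell into 3 stretches, singled out after their values were seen. The first 3 lay between 12273 and 48601, a further 16 between 170316 and 249782, and 21 between 323585 and 469037. No such region occurred in the 121.7 kb and 73.8 kb between those stretches, where 20 and 14 regions of other kinds lay. Inside the last stretch, none had a summit between 328.819 and 368.595 kb from the scaffold's first region, where many regions of other kinds lay. Of the 40, 22 had another within 1 kb, and 1 carried an amplified-DNA peak.

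JH431789 followed with 30 of 186 regions (16.1%) and JH432185 with 26 of 104 (25%). Median folds were 3.84 and 5.16 for CopiaMBD2 and CopiaMBD3 on the first, and 4.37 and 5.33 on the second. Neither had an amplified-DNA peak at any of these regions. On JH431789 only 8 of the 30 had another within 1 kb, and on JH432185 6 of the 26.

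**Figure D5:**
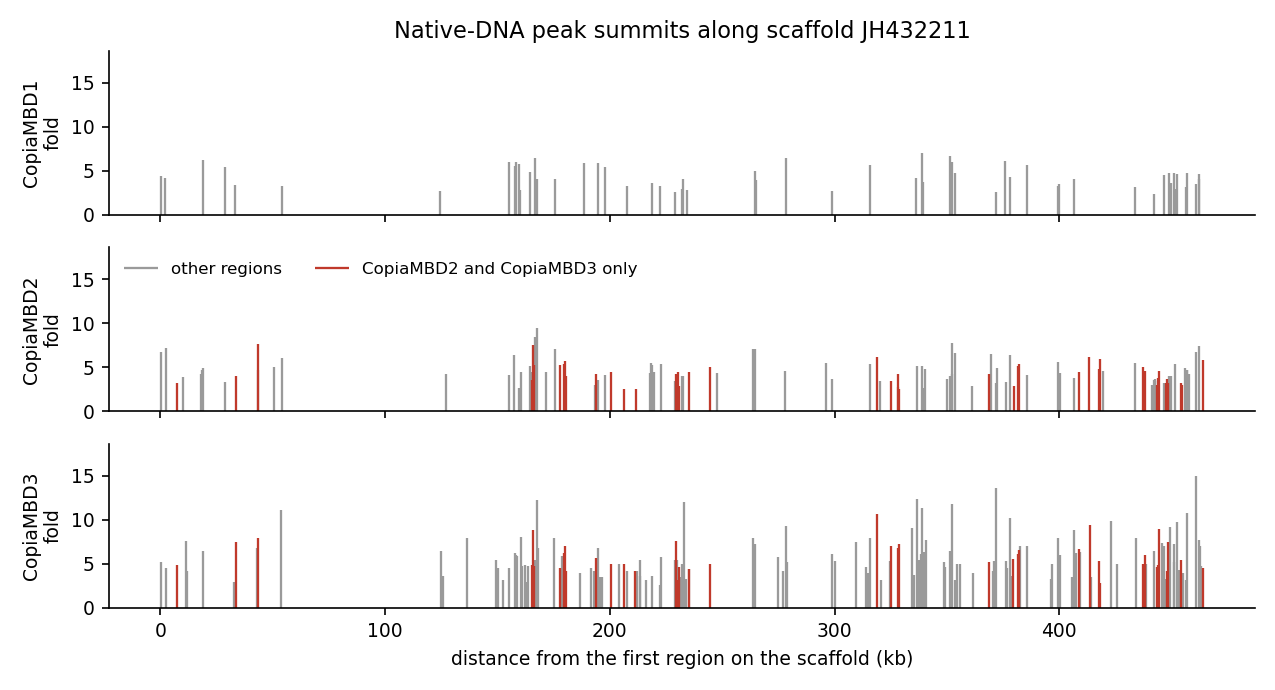
Fold enrichment at native-DNA peak summits along scaffold JH432211, by distance (kb) from its first region, for CopiaMBD1, CopiaMBD2 and CopiaMBD3 on 1 vertical scale. Red lines are summits in the 40 regions of CopiaMBD2 and CopiaMBD3 only and grey lines those in other regions. Red lines stand among grey ones, with several stretches of grey only.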

How the data were processed

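Per the file headers, the authors ran MACS2 2.1.0.20150731 on every library separately, using the HaloTag-only library from the same kind of DNA as control, a q-value threshold of 0.05, random sampling of the larger library and 1 tag per position. Coverage signal, as the authors deposited it, is the pileup of fragments at a summit. Fold is the authors' ratio of pileup to local control. Significance was deposited as −log10 of p and of q. CASAVA 1.8.2, Bowtie, BS-Seeker2, fastp and Bowtie2 are also listed by the submitters' processing notes, without roles.

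Regions were merged with Python 3.11.15, pandas 2.3.3, numpy 2.4.6 and scipy 1.17.1, and drawn with matplotlib 3.10.9. A region with several peaks of a domain took the highest fold. The control level was (pileup + 1) / fold − 1. Scaling it by fragment numbers gave an estimated CopiaMBD1 limit, at the lowest p in its list, taking the higher limit of both summits. The control sampled in the CopiaMBD1 run can differ from it. Shares carry exact Clopper-Pearson 95% intervals. Amplified-DNA peaks counted where they shared at least 1 bp with a region. PCR reads carry no molecular identifiers, so intervals cover counting error only. Alternatives changed the q or fold threshold, the overlap, the distance to CopiaMBD1, the list length and the sequences used. Merging and the limit were tested on simulated lists.

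The regions and lists were chosen with earlier results of these data known. Named regions are those extreme in lower fold, in either fold, in percentile difference, in amplified-DNA fold, in width, at the rule's edge, or on the 3 sequences with most. MethylC-seq was not analysed here.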

Additional observations from a re-analysis of the deposited data

How the results depend on the processing

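With 1 library per group, no replicate could be left out, and a value counts as moved when it left the 95% interval of the reported value (a count, when it changed by over 1.5 times). CpG content and gene overlap were planned and not run, as no genome was used here. No paired analysis was possible because every group had 1 library.

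The number of regions depended most on the lists. It was 1491 at a −log10 q of at least 10 in all 3 native lists, 2254 at a fold of at least 5, 434 when the stricter q was asked of CopiaMBD2 and CopiaMBD3 only, 1206 with 7461 peaks per list and 2586 on JH scaffolds. As a share of merged regions these were 20.6, 20.2, 4.20 and 9.33% for the first 4, and it was 15.6% when peaks had to overlap by at least 50% of each and 16.4% without a CopiaMBD1 peak within 500 bp. Asking the stricter q of CopiaMBD1 too thus raised the number from 434 to 1491. In the order stricter q, fold of at least 5, stricter q for CopiaMBD2 and CopiaMBD3 only, and equal lists, contigs held 45.3, 44.2, 46.8 and 43.3%. Median folds were 7.22, 6.31, 6.97 and 5.73 for CopiaMBD2 and 7.93, 7.11, 7.47 and 6.98 for CopiaMBD3. Another such region within 1 kb was found for 8.52, 10.6, 1.38 and 5.64%, with no share over all merged regions computed at these settings. Both folds exceeded the estimated CopiaMBD1 limit in 69.6, 93.0, 100 and 100%. These shares follow largely from the filters and test nothing. Each of these 4 settings raised the median folds, but the limit rose only with the stricter q in all 3 lists and with the fold of at least 5. An amplified-DNA peak was present in 1.21, 0.932 and 0.922% under the first 3, beside 0.911, 0.655 and 0.822% of all merged regions. The overlap of at least 50% gave a CopiaMBD3 median of 5.45 and a share within 1 kb of 14.3%. JH scaffolds gave a CopiaMBD2 median of 4.55. A further 18 alternative values stayed within those limits. Stricter lists keep stronger peaks by construction. The other causes were not tested.

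Single regions are limited by depth, at 16 and 18 fragments per median summit, and by control levels that differed between the lists.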
